A study of Mus musculus with 4 samples.

Results

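The TNF receptor-associated factors (TRAFs) and 4 regulators that work with them were followed in wild-type B1a and follicular B2 cells. The 10 genes were taken from a list of names, namely Traf1, Traf2, Traf3, Traf4, Traf5 and Traf6, together with Tank, Cyld, Birc3 and Map3k14. All 10 were found among the 20599 gene symbols of the deposited tables, and all 10 passed the filter on low counts, with between 232 and 5787 counts in a library. The data are RNA-Seq libraries of 2 cell types, each with 2 replicates, from C57BL/6 mice without any engineered allele or treatment. B1a cells were sorted from the peritoneal cavity by a gate that included CD23- IgM+ CD5+, and B2 cells were sorted from the spleen by a gate that included IgD hi IgM lo CD21+. The labels give an age of 4 weeks for both groups, whereas the methods give an older age for the mice that supplied the B2 cells. Differences of cell type, of tissue and, if the methods hold, of age cannot be told apart here. The methods state 2 mice per group, so the p-values measure the spread between 2 animals of a kind. Cells that lack Dnmt3a, the other arm of the study, are not analysed here.

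TRAF proteins are adaptors that dock on the cytoplasmic tails of TNF receptor family members such as CD40 and the BAFF receptor, and TRAF6 also carries signals from Toll-like and interleukin-1 receptors. In resting B cells, TRAF3 holds the kinase NIK, the product of Map3k14, on a complex of TRAF2 with the ubiquitin ligases cIAP1 and cIAP2, the products of Birc2 and Birc3, and NIK is then degraded. Engagement of CD40 or the BAFF receptor takes this complex apart, NIK accumulates, and the alternative NF-kB pathway is switched on, which is why this circuit is known for its control of B cell survival. TRAF1 differs from the other TRAFs in that it lacks a RING domain, CYLD removes the ubiquitin chains on which TRAF signals are built, and TANK joins TRAF proteins to the kinase TBK1.

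The promoters of Traf1 and Traf5 are shown because these were the 2 genes that passed the test given below, in opposite directions. That of Birc3 is shown because it had the highest level per transcript length of the 10 genes in both cell types. The windows were taken from RefSeq on GRCm38.p6 and run from 250 bases before the transcription start to 50 bases after it, written 5′ to 3′ on the strand of the gene, which is the minus strand for all 3 genes. Capitals mark CG dinucleotides, the sites at which vertebrate DNA is methylated. The Traf1 window lies at chr2:34961723-34962022, the Traf5 window at chr1:192092550-192092849 and the Birc3 window at chr9:7873121-7873420.
Traf1: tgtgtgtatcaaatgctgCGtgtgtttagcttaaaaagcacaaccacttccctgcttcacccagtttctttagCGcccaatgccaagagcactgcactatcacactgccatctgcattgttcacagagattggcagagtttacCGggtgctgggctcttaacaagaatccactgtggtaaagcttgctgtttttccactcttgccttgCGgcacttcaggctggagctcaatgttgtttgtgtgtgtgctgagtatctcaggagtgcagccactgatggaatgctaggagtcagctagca
Traf5: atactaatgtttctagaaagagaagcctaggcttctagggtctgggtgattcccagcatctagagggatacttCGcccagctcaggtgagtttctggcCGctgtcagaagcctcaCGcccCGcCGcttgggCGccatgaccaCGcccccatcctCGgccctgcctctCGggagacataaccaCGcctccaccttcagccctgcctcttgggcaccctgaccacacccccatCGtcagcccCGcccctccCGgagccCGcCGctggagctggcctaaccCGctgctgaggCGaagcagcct
Birc3: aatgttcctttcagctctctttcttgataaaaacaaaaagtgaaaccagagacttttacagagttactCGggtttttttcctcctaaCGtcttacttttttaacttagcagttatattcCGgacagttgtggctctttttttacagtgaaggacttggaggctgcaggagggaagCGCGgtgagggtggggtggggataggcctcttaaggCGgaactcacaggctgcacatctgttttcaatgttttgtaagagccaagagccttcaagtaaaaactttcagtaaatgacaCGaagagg
The Traf1 window holds 4 CG dinucleotides at a GC content of 48.7%, and the Traf5 window holds 17 at 63.7%. The Birc3 window holds 7 CG dinucleotides, which is also the median of the 32851 RefSeq windows. A kappaB consensus motif, searched on both strands, was found in 8.46% of all windows and in 6 of the 13 windows of the 10 genes. These were every window of Tank, which overlap in pairs, and the windows of Traf3 and Cyld. The palindrome CACGTG, an E-box, occurred in 7.15% of all windows and in none of the 13 windows of these genes. TGANTCA, a looser form of the AP-1 consensus, occurred in 7.81% of all windows and in 2 overlapping windows of Tank. These are letter matches only.

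Of the 10 genes, Traf1 was higher in B1a cells and Traf5 was higher in B2 cells, and the other 8 did not pass the test (edgeR's quasi-likelihood test, a Benjamini-Hochberg adjusted p below 0.05 over all 12078 genes tested). The 2 calls stand against 5.74% of all tested genes called in either direction, with 4.24% called higher in B1a cells and 1.50% called higher in B2 cells. Replicates of the 2 groups did not overlap for 8 of the 10 genes, against 54.3% of all tested genes. B2 cells were higher in 6 of these 8 (29.0% of all genes) and B1a cells in 2 (25.3% of all genes). The median log2 fold change of B1a over B2 was -0.30 over the 10 genes and -0.03 over all genes tested. An unadjusted p under 0.05 was found for 5 of the 10 genes and for 20.9% of all genes. With other methods on all 4 libraries, 1 of the 10 genes, Traf5, was called with upper quartile factors (5.50% of all genes called) and with limma on log2(TPM + 1) (4.15%) and log2(TPM + 0.1) (2.98%), and Traf1 and Traf5 were called with DESeq2 (12.9%). The number of calls among the 10 genes also depended on single libraries. It was 7 without B1a replicate 1 (31.0% of all genes called) and 5 without B1a replicate 2 (48.9%), where the spread comes from the B2 pair alone, and 1 without B2 replicate 2 (4.45%). Without B2 replicate 1 (4.24%) edgeR called 0, with an unadjusted p under 0.05 for 2 of the 10 genes. In bulk RNA, fewer cells that express a gene and less RNA per cell cannot be told apart.

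**Figure D1:**
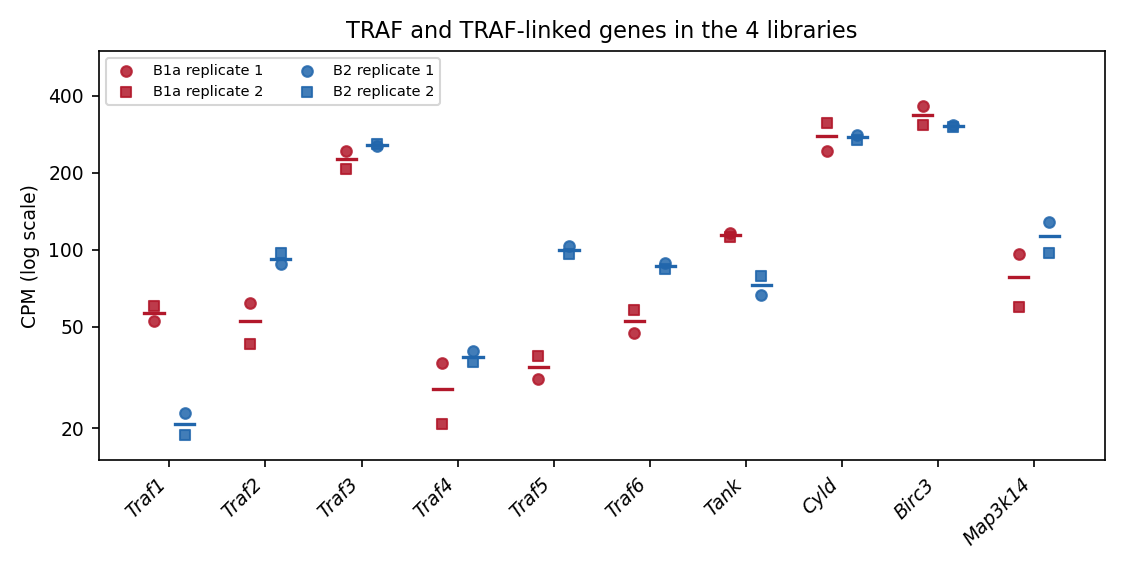
CPM (read counts scaled to a common library total, log axis) of each of the 10 genes in the 4 libraries, with B1a replicates in red, B2 replicates in blue and a bar at the mean of each pair. Both B1a replicates lie above both B2 replicates for Traf1 and Tank, both lie below them for Traf2, Traf3, Traf4, Traf5, Traf6 and Map3k14, and the pairs overlap for Cyld and Birc3.

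Traf1 (chr2:34941750-34961812 in RefSeq on GRCm38.p6), which encodes the TRAF without a RING domain, had 52.5 and 60.3 CPM in the pair of B1a libraries and 23.0 and 18.8 CPM in the pair of B2 libraries. Both B1a replicates were thus above both B2 replicates, at a mean of 56.4 ± 5.53 CPM against 20.9 ± 2.95 CPM (SD, n = 2 each). The fitted difference was 2.70-fold (log2 fold change 1.43, SE 0.28, 95% interval 0.74 to 2.13, adjusted p = 0.0448 by edgeR's quasi-likelihood test). This call lay close to the threshold and was lost with upper quartile factors (1.36, adjusted p = 0.0557) and with limma on log2(TPM + 1) (1.16, adjusted p = 0.0768) and log2(TPM + 0.1) (1.19, adjusted p = 0.0854). It was also lost without B2 replicate 1 (1.58, adjusted p = 0.219 by edgeR) and without B2 replicate 2 (1.29, adjusted p = 0.442 by edgeR), where the spread comes from the B1a pair alone.

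Traf5 (chr1:191997203-192092599), which encodes an adaptor of CD40 and CD27 closely related to TRAF3, had 31.3 and 38.3 CPM in the pair of B1a libraries and 103 and 96.2 CPM in the pair of B2 libraries. The lower B2 replicate was well above the higher B1a replicate, and the means were 34.8 ± 4.97 CPM for B1a and 99.7 ± 4.88 CPM for B2 (SD, n = 2 each). Traf5 was 2.86-fold higher in B2 cells (log2 fold change of B1a over B2 -1.52, SE 0.22, 95% interval -2.07 to -0.97, adjusted p = 0.0182 by edgeR's quasi-likelihood test). Without B2 replicate 1 the log2 fold change was -1.47 and the adjusted p was 0.0911 by edgeR.

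The deposited tables split Traf5 into 2 entries, of 976 and 1165 bases, so each was also examined on its own. The 976-base entry had 28.9 and 30.7 TPM (transcript abundance scaled for length and for a common total) in the B1a replicates and 125 and 128 TPM in the B2 replicates. The 1165-base entry had 42.3 and 53.6 TPM in the B1a replicates and 153 and 129 TPM in the B2 replicates. Both entries were higher in both B2 replicates than in either B1a replicate. The log2 fold change was -1.84 for the first entry (adjusted p = 0.0375 by edgeR) and -1.31 for the second (adjusted p = 0.0659 by edgeR), so the second did not pass alone. In GENCODE M21 the exons of Traf5 share 205 bases with the antisense gene Gm26879 and 65 bases with the miRNA gene Mir3473c, and neither of these is among the deposited entries.

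**Figure D2:**
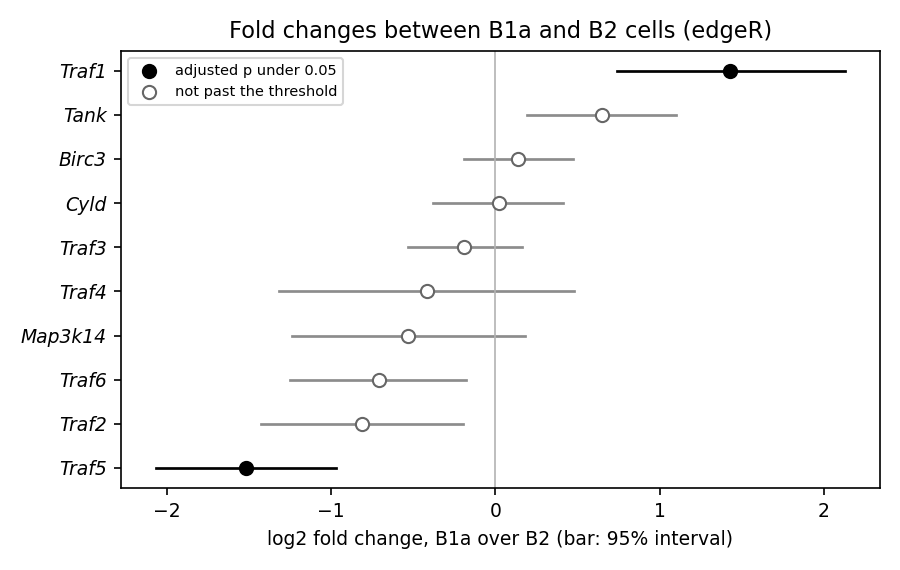
Log2 fold change of B1a over B2 for each of the 10 genes (horizontal axis), with the 95% interval as a bar, filled points for an adjusted p under 0.05 and open points for the rest. Traf1 at 1.43 and Traf5 at -1.52 are the filled points, and the intervals of Tank, Traf6 and Traf2 leave out 0 although their adjusted p did not pass.

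Traf2 and Traf6, the TRAFs that link receptors to the classical NF-kB and stress kinase cascades, had higher values in B2 cells without passing the test. Traf2 was measured at 62.0 and 42.9 CPM in B1a and at 87.7 and 96.9 CPM in B2 cells (log2 fold change -0.81, SE 0.25, adjusted p = 0.145 by edgeR). Traf6 was measured at 47.2 and 58.3 CPM in B1a and at 89.0 and 83.7 CPM in B2 cells (-0.71, SE 0.22, adjusted p = 0.144 by edgeR). For both genes the replicates of the 2 groups did not overlap. Without B1a replicate 1 the log2 fold change was -1.11 for Traf2 and -0.57 for Traf6, and without B1a replicate 2 it was -0.58 and -0.87. Without B2 replicate 1 it was -0.89 for Traf2 and -0.67 for Traf6, and without B2 replicate 2 it was -0.75 and -0.76. In fits without a B1a replicate the spread comes from the B2 pair alone, and the B2 replicates lay closer together. The median absolute log2 ratio between B2 replicates was 0.16 over genes of at least 10 CPM, against 0.40 for the B1a replicates.

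Traf3, the brake on NIK, was measured at 244 and 207 CPM in B1a and at 254 and 259 CPM in B2 cells. The values differed little beside those of Traf1 and Traf5, at a log2 fold change of -0.19 (SE 0.14, 95% interval -0.53 to 0.16, adjusted p = 0.536 by edgeR). Traf4, the TRAF with the weakest ties to immune receptors, was measured at 36.1 and 20.9 CPM in B1a and at 40.1 and 36.3 CPM in B2 cells. Its B1a replicates differed from each other by 0.78 on the log2 scale, the largest gap among the 10 genes, and its log2 fold change was -0.42 (SE 0.37, adjusted p = 0.599 by edgeR). Without B1a replicate 1 it became -0.87 (adjusted p = 0.0066 by edgeR) and without B1a replicate 2 it became -0.08 (adjusted p = 0.8 by edgeR), with the spread taken from the B2 pair alone.

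Map3k14, the gene of NIK, was measured at 96.5 and 59.5 CPM in B1a and at 129 and 96.7 CPM in B2 cells. The higher B1a replicate and the lower B2 replicate were almost level, and the log2 fold change was -0.53 (SE 0.29, 95% interval -1.24 to 0.18, adjusted p = 0.38 by edgeR). Without B1a replicate 1 it became -0.92 (adjusted p = 3.67e-05 by edgeR) and without B1a replicate 2 it became -0.22 (adjusted p = 0.306 by edgeR), with the spread taken from the B2 pair alone. Without B2 replicate 1 it was -0.31 (adjusted p = 1 by edgeR). The exons of Map3k14 share 135 bases with the transcript 1700028N14Rik on the same strand in GENCODE M21. Birc3, the gene of cIAP2, was measured at 364 and 307 CPM in B1a and at 307 and 303 CPM in B2 cells. Its lower B1a replicate and higher B2 replicate were level, and the log2 fold change was 0.14 (SE 0.14, 95% interval -0.19 to 0.47, adjusted p = 0.647 by edgeR). Birc2, the gene of cIAP1, was measured at 56.1 and 85.3 CPM in B1a and at 89.9 and 92.3 CPM in B2 cells (-0.37, adjusted p = 0.498 by edgeR). Without B1a replicate 2 it became -0.70 (adjusted p = 0.00284 by edgeR) and without B1a replicate 1 it became -0.10 (adjusted p = 0.74 by edgeR).

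Tank was measured at 116 and 112 CPM in B1a and at 66.8 and 78.7 CPM in B2 cells. Both B1a replicates were above both B2 replicates, yet the gene did not pass the test (log2 fold change 0.65, SE 0.19, 95% interval 0.19 to 1.10, adjusted p = 0.124 by edgeR). With 1 library left out its log2 fold change was 0.62 without B1a replicate 1 and 0.67 without B1a replicate 2. It was 0.53 without B2 replicate 1 and 0.76 without B2 replicate 2. Its partner kinase Tbk1 had a log2 fold change of -0.10 (SE 0.19, adjusted p = 0.842 by edgeR). Cyld, the deubiquitinase, was measured at 243 and 313 CPM in B1a and at 281 and 269 CPM in B2 cells. Both B2 replicates lay between the B1a replicates, and the log2 fold change was 0.02 (SE 0.16, 95% interval -0.38 to 0.41, adjusted p = 0.971 by edgeR). Tnfaip3, which encodes A20, another enzyme that edits ubiquitin chains in TRAF signalling, was measured at 276 and 221 CPM in B1a and at 80.8 and 79.0 CPM in B2 cells. Tnfaip3 was 3.11-fold higher in B1a cells (log2 fold change 1.64, SE 0.17, adjusted p = 0.00597 by edgeR).

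Levels of different genes were compared per transcript length, in TPM, where the levels of Traf5 are the mean of its 2 entries weighted by effective length. In B1a cells Birc3 was highest at 279.5 ± 39.0 TPM, followed by Tank at 131 ± 3.65 TPM (SD, n = 2). Cyld at 79.4 ± 12.4 TPM and Traf3 at 72.7 ± 9.65 TPM followed, with overlapping replicates. Below them came Traf1 at 57.1 ± 4.58 TPM, Map3k14 at 43.5 ± 15.3 TPM, Traf2 at 40.3 ± 11.1 TPM and Traf5 at 39.7 ± 4.97 TPM, and each of these 4 overlapped with its neighbour in the order. Traf4 at 22.1 ± 8.77 TPM and Traf6 at 19.9 ± 2.45 TPM were lowest and overlapped.

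In B2 cells Birc3 was again highest at 299.5 ± 6.21 TPM, but Traf5 came second at 134.7 ± 8.07 TPM (SD, n = 2), apart from all the genes below it. Traf3 at 97.8 ± 0.0919 TPM, Tank at 97.5 ± 9.49 TPM and Cyld at 93.0 ± 3.73 TPM followed, and neighbours among them overlapped. Traf2 at 83.3 ± 4.91 TPM and Map3k14 at 74.2 ± 15.8 TPM overlapped as well. The lowest 3 genes had replicates apart from their neighbours, with Traf6 at 39.0 ± 1.76 TPM, Traf4 at 35.0 ± 2.81 TPM and Traf1 at 25.1 ± 3.83 TPM. Traf1 thus ranked 5th of the 10 in B1a cells and last in B2 cells, and Traf5 ranked 8th in B1a cells and 2nd in B2 cells. With the TPM of the 2 Traf5 entries added in place of their mean, Traf5 stood at 77.8 ± 9.31 TPM in B1a cells (SD, n = 2) and ranked 4th there and 2nd in B2 cells, and Traf1 ranked 6th and last.

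The make-up of the TRAF pool was examined as the share of each gene in the summed TPM of Traf1 to Traf6, a measure that the scaling of a library does not touch. The sum itself does depend on the scaling. On log2(TPM + 1) the median log2 fold change of B1a over B2 over all genes was -0.30, against -0.03 with edgeR. The summed level was 264 and 239.5 TPM in the B1a replicates and 423 and 407 TPM in the B2 replicates. Traf1 made up 20.4% and 25.2% of it in the B1a replicates and 6.56% and 5.49% in the B2 replicates. Traf5 made up 13.7% and 18.1% in the B1a replicates and 33.2% and 31.7% in the B2 replicates. The difference in share, B1a minus B2, was 16.8 percentage points for Traf1 and -16.6 points for Traf5. With the TPM of the 2 Traf5 entries added, it was 15.2 points for Traf1 and -22.0 points for Traf5. The 6 shares of a library make up a fixed whole, so a lower share of 1 gene raises the shares of others. Traf3 held 30.1% and 27.5% in the B1a replicates and 23.1% and 24.1% in the B2 replicates. With the TPM of the 2 Traf5 entries added in place of their mean, Traf5 held 23.8% and 30.1% in the B1a replicates and Traf3 26.6% and 23.5%, so which of them was the largest share in B1a cells depends on this choice. Shares of Traf2 lay between 13.6% and 21.3%, those of Traf4 between 6.66% and 10.7% and those of Traf6 between 6.88% and 9.51% in the 4 libraries. The replicates of the 2 groups did not overlap for the shares of 5 genes and overlapped for that of Traf4. With 2 against 2 libraries an exact two-sided permutation test cannot go below p = 0.33, the value it gave for those 5 shares (0.4 after Benjamini-Hochberg adjustment over the 6 shares), so the shares are a description.

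**Figure D3:**
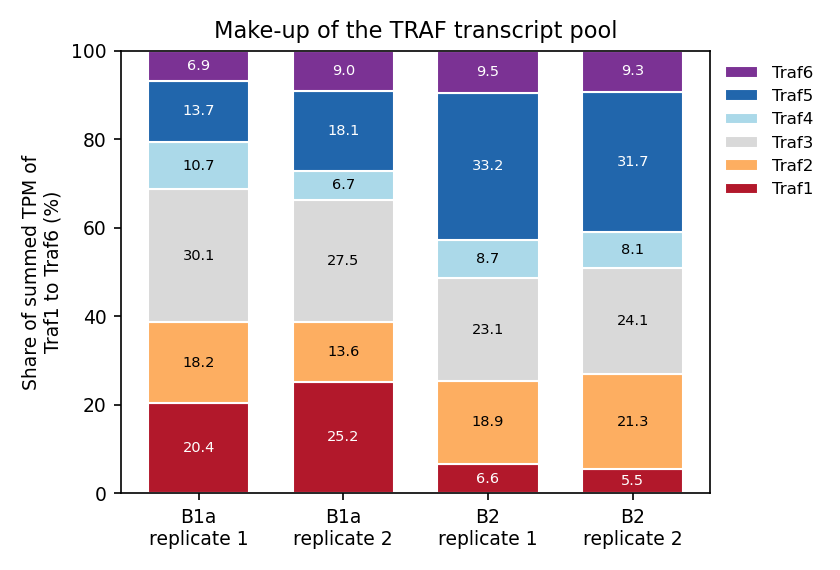
Stacked bars give the percentage of the summed TPM of Traf1 to Traf6 that each gene made up in each of the 4 libraries. Traf1 (bottom) takes 20.4% and 25.2% in the B1a replicates against 6.56% and 5.49% in the B2 replicates, and Traf5 (blue) takes 13.7% and 18.1% against 33.2% and 31.7%.

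Ratios of TPM between genes whose products work together were compared within each library. There were 1.12 and 1.86 Traf1 transcripts per Traf2 transcript in the B1a replicates and 0.348 and 0.257 in the B2 replicates. TRAF1 joins TRAF2 in complexes with the cIAP proteins. On this scale per length, Traf1 transcripts outnumbered Traf2 transcripts in both B1a libraries and were fewer in both B2 libraries. The ratio of Traf3 to Traf2 was 1.65 and 2.03 in B1a and 1.22 and 1.13 in B2 cells. The ratio of Traf3 to Map3k14, the brake to the kinase it holds down, was 1.46 and 2.01 in B1a and 1.15 and 1.55 in B2 cells, and the groups overlapped. The 2 cIAP genes stood at a Birc3 to Birc2 ratio of 7.27 and 4.03 in B1a and 3.82 and 3.67 in B2 cells, so that Birc3 was the more abundant in every library. The ratio of Tank to Tbk1 was 2.31 and 2.07 in B1a and 1.14 and 1.44 in B2 cells. The ratio of Cyld to Tnfaip3 was 0.476 and 0.758 in B1a and 1.88 and 1.84 in B2 cells, so per length the more abundant of these 2 transcripts was Tnfaip3 in both B1a libraries and Cyld in both B2 libraries. For the 5 ratios whose groups did not overlap, the exact two-sided permutation test gave p = 0.33 (0.4 after Benjamini-Hochberg adjustment over 6 ratios), the smallest it can give here.

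**Figure D4:**
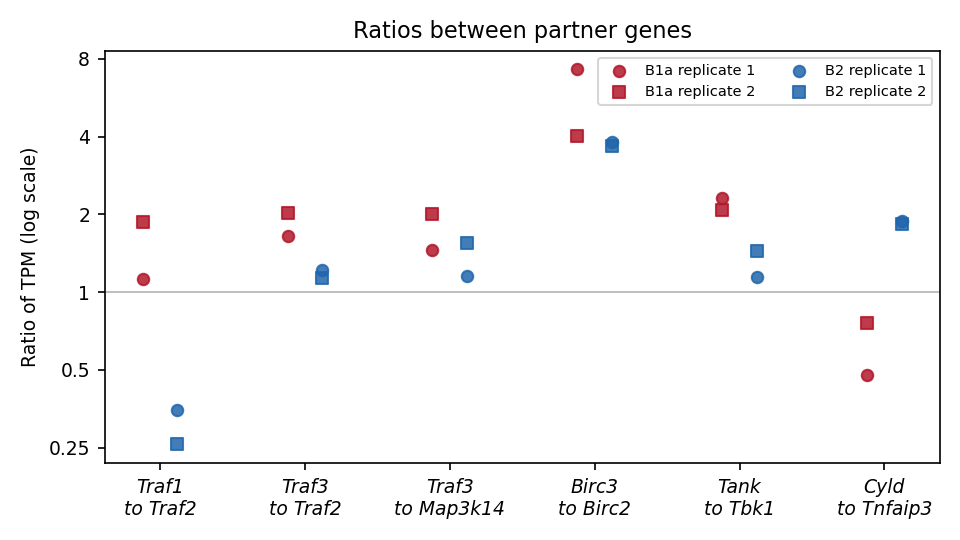
Ratio of TPM between 2 partner genes (log axis, line at 1) in each of the 4 libraries, with B1a replicates in red and B2 replicates in blue. The Traf1 to Traf2 ratio is above 1 in both B1a replicates (1.12 and 1.86) and below 1 in both B2 replicates (0.348 and 0.257), and the Cyld to Tnfaip3 ratio is placed the other way round.

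The other genes of the pathway were counted in 7 lists of 107 genes, of which 98 were tested. Of these, 7 were called higher in B1a and 3 higher in B2 cells by the same edgeR test, against 4.24% and 1.50% of all genes. Their median log2 fold change was 0.00, against -0.03 over all genes tested. Among the calls higher in B1a cells, Tnfrsf8 and Tnfsf8 passed the filter on low counts only through the B1a libraries. With 1 B1a library left out, where the spread comes from the B2 pair alone, more pathway genes and more of all genes were called. With 1 B2 library left out, fewer of both were called. These shifts are thus not read as a result about the pathway.

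Among the receptors that bind TRAF proteins, 3 of 13 tested genes were called higher in B1a and 1 higher in B2 cells. Over all genes tested these calls made up 4.24% and 1.50%. The median log2 fold change of the 13 was 0.80, against -0.03 over all genes tested. Tnfrsf8, the gene of CD30, was measured at 64.2 and 84.9 CPM in B1a and at 0.607 and 0 CPM in B2 cells (adjusted p = 0.00967 by edgeR). With 0 to 7 counts in the B2 libraries, Tnfrsf8 entered the test only through its B1a counts, so only a call higher in B1a was possible. Its call was lost with limma-voom (adjusted p = 0.114). Tnfrsf19, the gene of TROY, was measured at 57.1 and 64.2 CPM in B1a and at 3.56 and 1.62 CPM in B2 cells (log2 fold change 4.57, SE 0.49, adjusted p = 0.00681 by edgeR). Tnfrsf1b, the gene of TNF receptor 2, a receptor that recruits TRAF2 and TRAF1, was measured at 96.1 and 138 CPM in B1a and at 30.1 and 24.4 CPM in B2 cells (2.10, SE 0.27, adjusted p = 0.0117 by edgeR). The call of Tnfrsf1b was lost with limma on log2(TPM + 1) (adjusted p = 0.0535) and log2(TPM + 0.1) (adjusted p = 0.0636), and on the latter scale those of Tnfrsf19 (adjusted p = 0.053 by limma) and Tnfrsf8 (adjusted p = 0.0523 by limma) were lost too. Tnfrsf13c, the gene of the BAFF receptor, which signals through TRAF3, was the one called higher in B2 cells, with 99.0 and 91.3 CPM in B1a libraries against 292 and 284 CPM in B2 libraries (-1.60, SE 0.14, adjusted p = 0.00384 by edgeR). It was called in all 10 other settings and without each of the 4 libraries.

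Of the TNF family ligands, 1 of 6 tested genes was called, against 5.74% of all genes tested. Tnfsf8, the gene of CD30 ligand, was measured at 34.1 and 31.6 CPM in B1a and at 0.347 and 0 CPM in B2 cells (adjusted p = 0.0201 by edgeR). Receptor and ligand of the CD30 pair were thus both at or near the floor of 3 counts in B2 libraries, which corresponds to between 0.161 and 0.272 CPM and covers counting error only. With 0 to 4 counts in the B2 libraries, Tnfsf8 also entered the test only through its B1a counts. The call of Tnfsf8 was lost with limma-voom (adjusted p = 0.111) and with limma on log2(TPM + 0.1) (adjusted p = 0.0531).

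Among ubiquitin ligases, deubiquitinases and ubiquitin-binding partners, 2 of 23 tested genes were called higher in B1a and 2 higher in B2 cells. Over all genes tested these calls made up 4.24% and 1.50%. The median log2 fold change of the 23 was -0.02. Besides Tnfaip3, Sqstm1, the gene of the TRAF6-binding scaffold p62, was higher in B1a cells at 277 and 324 CPM, against 133.5 and 117 CPM in B2 cells (1.26, SE 0.15, adjusted p = 0.00985 by edgeR). Peli1, which encodes a ubiquitin ligase of Toll-like receptor signalling, was measured at 44.3 and 60.3 CPM in B1a and at 111 and 125 CPM in B2 cells (-1.18, SE 0.23, adjusted p = 0.0431 by edgeR). Otulin, the gene of a deubiquitinase that takes linear ubiquitin chains apart, was measured at 46.2 and 56.4 CPM in B1a and at 105 and 108 CPM in B2 cells (-1.06, SE 0.21, adjusted p = 0.0431 by edgeR). Without B2 replicate 1 the adjusted p was 0.0945 for Peli1 and 0.284 for Otulin by edgeR, and without B2 replicate 2 it was 0.263 and 0.351. The call of Peli1 was also lost with limma on log2(TPM + 0.1) (adjusted p = 0.0523) and with entries left unsummed (adjusted p = 0.0502 by edgeR). Tnfaip3 and Sqstm1 were called without each of the 4 libraries.

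Among the NF-kB subunits and inhibitors, 1 of 11 tested genes was called, against 5.74% of all genes tested. The median log2 fold change of the 11 was 0.08. Nfkbiz, which encodes the nuclear regulator IkB-zeta, was measured at 240.0 and 207 CPM in B1a and at 109.7 and 113 CPM in B2 cells (1.00, SE 0.15, adjusted p = 0.02 by edgeR). Without B2 replicate 1 its adjusted p was 0.0689 and without B2 replicate 2 it was 0.0532 by edgeR, and with limma it was 0.0768 on log2(TPM + 1) and 0.0861 on log2(TPM + 0.1). No gene was called by edgeR among 12 other TRAF relatives and TRAF-interacting proteins, 19 kinases and kinase adaptors, and 14 adaptors of Toll-like and interleukin-1 receptors. An unadjusted p under 0.05 by edgeR was found for 2, 4 and 3 of them, respectively, against 20.9% of all genes tested. DESeq2 called 0, 2 and 2, against 12.9% of all genes tested.

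**Figure D5:**
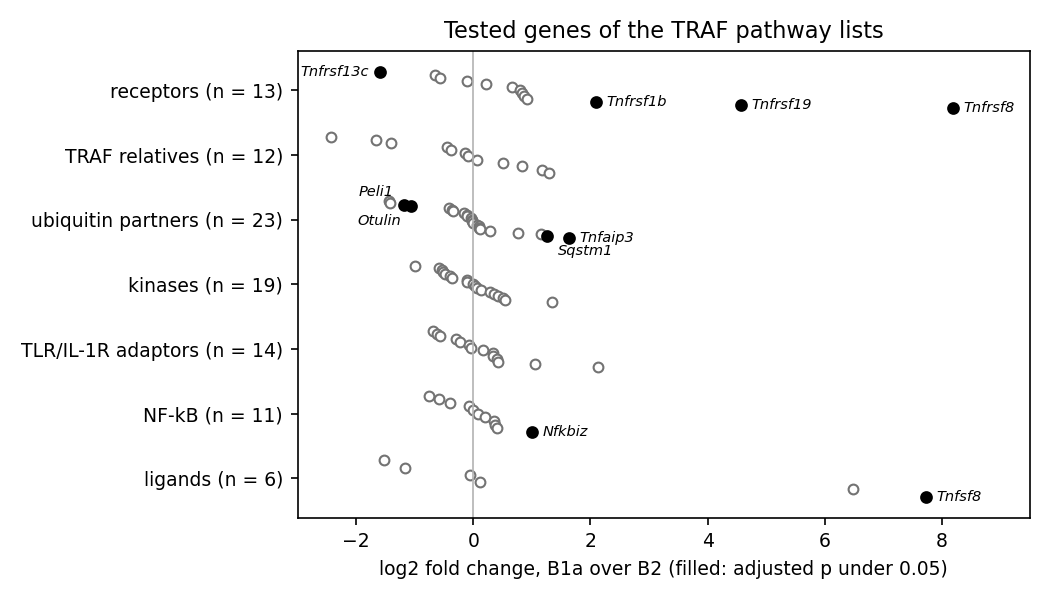
Log2 fold change of B1a over B2 (horizontal axis) of each tested gene in the 7 pathway lists, ordered within a list, with filled points and names for an adjusted p under 0.05. The filled points lie in the lists of receptors, ubiquitin partners, NF-kB genes and ligands, and the values of Tnfrsf8 and Tnfsf8 are fitted against near-empty B2 libraries and depend on the prior count of the fit.

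Library totals lay between 11032732 and 18588623 counts. The B1a markers summed to 1181 and 893 CPM in B1a cells against 75.7 and 75.3 CPM in B2 cells, and the 2 follicular markers to 162 and 153 CPM against 1902 and 1942 CPM. Other cell types were checked with the whole of each marker list. The 9 macrophage markers summed to 239 and 272 CPM in the B1a libraries and to 71.7 and 77.0 CPM in the B2 libraries, with 8 of them above the floor in every library and Fcgr1 at 0 in both B1a libraries. The 3 mast cell markers summed to 19.2 and 8.72 CPM in B1a and 1.48 and 0.941 CPM in B2 libraries, and the 5 erythroid markers to 78.8 and 504 CPM in B1a and 36.1 and 80.8 CPM in B2 libraries. The 8 T cell markers summed to between 89.5 and 125 CPM in all 4 libraries, with Cd4 at 0 in both B1a libraries. The part of these cells in the higher B1a values of Traf1, Tnfaip3, Tnfrsf1b and Sqstm1 was not tested.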

How the data were processed

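RNA-Seq reads of the 4 wild-type libraries were aligned by the authors to mm10 and quantified over RefSeq genes with RSEM, whose version is 1.2.29 in the submitters' processing notes and differs in the methods. The labels name a ribosomal RNA depletion kit and the methods a stranded kit, whereas the authors' discussion states that polyadenylated RNA was enriched. Strand use in the counting is not given in the sources used here. Expected counts, without normalization, were deposited by the authors for 21970 entries, and reads that match several entries are divided between them. They also deposited TPM, FPKM (not used) and a posterior standard deviation of each count as a signal value, which was at most 0.572% of the count for every entry of the 10 genes and of Birc2.

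Here the expected counts of a symbol were added up and rounded. Genes were kept by filterByExpr, libraries were scaled with TMM factors, and edgeR 4.0.16 (R 4.3.3) was used for the quasi-likelihood test, with Benjamini-Hochberg adjustment over all 12078 genes and a threshold of 0.05. Standard errors came from the F statistic. EBSeq, named in the methods, was not run. CPM used TMM-scaled totals, and TPM served to compare genes. The 2 Traf5 entries carry 1 accession and share almost no reads, so their TPM was averaged by effective length. Alternatives were DESeq2 1.42.0, limma-voom and limma on log2 TPM (limma 3.58.1), other filters and scalings, a replicate block, entries left unsummed, and each library left out. A further one, TPM of the Traf5 entries added, was chosen after seeing the data. Scripts were tested on simulated data. The 10 genes, the lists and the rule for naming genes were chosen with earlier results of these data known. All 10 genes are named, and of the lists only the called genes and the partners in the ratios. Promoter windows and gene positions came from RefSeq (GRCm38.p6).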

Additional observations from a re-analysis of the deposited data

How the results depend on the processing

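Each group had 2 libraries, the lowest count of the 10 genes was 232, and where a library is left out the lone library of its group is assumed to vary like the other pair. Calls over all genes numbered 693, and 1562 with DESeq2, 1415 with limma-voom and a weight for each cell type, 1141 without a filter and 359 with limma on log2(TPM + 0.1), and ranged from 539 to 6143 with 1 library left out. Among the 10 genes, 2 were called, 1 of them (Traf5) with upper quartile factors, log2(TPM + 1) and log2(TPM + 0.1), and 0 to 7 with 1 library left out. Of the pathway genes 10 were called, 17 with DESeq2, 17 with cell type weights, 4 with log2(TPM + 0.1) and 7 to 54 with 1 library left out. Of all calls, 73.9% were higher in B1a cells, against 53.3% with log2(TPM + 1) and 54.6% with log2(TPM + 0.1), 51.9% without B1a replicate 1 and 45.4% without B1a replicate 2. On the 2 TPM scales the median over all genes moved from -0.03 to -0.30 and -0.32. There Cyld turned to -0.23 and -0.24 and Birc3 to -0.11 and -0.11, above that median in each case. Cyld was also at -0.05 with upper quartile factors, and between -0.18 and 0.19 with 1 library left out. The causes of these moves were not tested.

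No source used here says that same-numbered libraries share an animal, and deviations of same-numbered libraries had a correlation of -0.0347 across genes. With a replicate block edgeR called 1481 genes (12.3%), 18 pathway genes and 3 of the 10 genes, Traf2 (-0.84, adjusted p = 0.0475) joining Traf1 and Traf5.

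Shares in the TRAF pool and ratios changed with the unit. On CPM without length the difference between B1a and B2 was 9.09 points for Traf1, -9.0 for Traf5 and -0.173 for Traf4, which reversed, and the B1a ratios were 0.847 and 1.41 for Traf1 to Traf2 and 0.88 and 1.42 for Cyld to Tnfaip3, on both sides of 1. With the Traf5 entries added the difference in share was -22.0 points for Traf5 and 7.17 for Traf3, and the groups overlapped for Traf2 and Traf6.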
